A study of Homo sapiens with 2 samples.

Results

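G1 cyclins, cyclin-dependent kinases (CDKs) and their inhibitors decide whether a cell enters S phase, and they were compared between human CL1-0 cells with an FDFT1 vector and the same line with a control vector. The 10 genes chosen were CCND1, CCND2, CCND3, CDK4, CDK6, CDK2, CDKN1B, CDKN2A, CDKN2C and RB1, and every probe set that the platform annotation assigns to one of these symbols was taken. The annotation listed 25 probe sets for 9 of these genes, out of 19775 genes with a probe set of their own. CDKN2C, the gene of the CDK4 and CDK6 inhibitor p18, is not analysed here.

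CL1-0 is an established lung adenocarcinoma line, whose cell type the labels give as type II alveolar. The FDFT1 product is squalene synthase, which commits the mevalonate pathway to sterol synthesis. Both cultures were stably transduced and kept in puromycin for 2 weeks, and RNA of each was hybridised to 1 Affymetrix array, so there was no replicate and no p-value can be given. The promoter driving FDFT1, and whether the cells were a pool or a clone, are not stated in the labels, and the FDFT1 transcript itself was not analysed here.

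In G1, the D-type cyclins (CCND1, CCND2, CCND3) bind CDK4 and CDK6 and direct them to the retinoblastoma protein RB1. Phosphorylated RB1 lets go of E2F transcription factors, which switch on cyclin E and the genes of DNA replication, and cyclin E with CDK2 completes the step. CDKN2A encodes p16, which blocks CDK4 and CDK6, and from a separate upstream start the unrelated protein ARF, which stabilises p53. CDKN1B encodes p27, which inhibits CDK2 complexes and is regulated largely through protein degradation. In lung cancer, p16 and RB1 are recurrent points of loss in this pathway.

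To show the control regions from which 3 of these genes start, the 250 bases before RefSeq starts (GRCh38.p14) are given here. CDK4 is on the minus strand at chr12:57752311-57752560, and capitals mark CACGTG, known as the E-box. The CDKN1B window is on the plus strand at chr12:12717118-12717367, where capitals mark CCAAT. For CDKN2A, which is on the minus strand, the p16 window is chr9:21974858-21975107 and the ARF window is chr9:21995325-21995574. They are shown because no probe set of the gene is tied to either start in the annotation, and capitals mark GGGCGG, the GC box.
CDK4: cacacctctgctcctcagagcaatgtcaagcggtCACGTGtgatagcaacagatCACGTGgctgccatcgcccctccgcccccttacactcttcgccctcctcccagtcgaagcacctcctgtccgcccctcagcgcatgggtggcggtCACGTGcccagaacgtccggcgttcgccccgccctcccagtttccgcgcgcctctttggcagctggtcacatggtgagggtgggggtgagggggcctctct
CDKN1B: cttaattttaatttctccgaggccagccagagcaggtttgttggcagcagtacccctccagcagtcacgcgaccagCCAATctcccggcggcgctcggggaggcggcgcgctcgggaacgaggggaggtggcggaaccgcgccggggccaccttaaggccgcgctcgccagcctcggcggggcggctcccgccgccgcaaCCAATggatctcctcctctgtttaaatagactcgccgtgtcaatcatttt
CDKN2A, p16 start: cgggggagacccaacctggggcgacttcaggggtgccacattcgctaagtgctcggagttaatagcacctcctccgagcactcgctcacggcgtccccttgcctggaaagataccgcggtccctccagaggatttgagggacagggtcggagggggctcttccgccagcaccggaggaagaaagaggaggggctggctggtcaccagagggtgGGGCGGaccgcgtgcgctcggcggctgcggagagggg
CDKN2A, ARF start: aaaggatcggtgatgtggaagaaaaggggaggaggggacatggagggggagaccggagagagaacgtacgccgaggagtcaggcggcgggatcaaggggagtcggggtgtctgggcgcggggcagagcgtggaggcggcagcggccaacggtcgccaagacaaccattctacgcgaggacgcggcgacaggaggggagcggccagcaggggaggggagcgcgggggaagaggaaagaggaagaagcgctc

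The motifs were read on both strands, and no match of one kind overlapped another in the windows of these genes. CACGTG occurred 3 times in the CDK4 window, and 6.34% of the 35116 windows in the RefSeq promoter table held it at least once. CCAAT occurred 2 times in the CDKN1B window (32% of all windows held it), and GGGCGG occurred 1 time in the p16 window and had no match in the ARF window (42.6% of all windows held it). The E2F letters TTTCCCGC, TTTCGCGC, TTTGCCGC and TTTGGCGC were in none of the 13 windows listed for 7 of the 10 genes, against 2.79% of all windows, and the forkhead letters GTAAACA were in none of them, against 2.98%. These are matches of letters in fixed windows and say nothing of binding.

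The deposited values are MAS5 signal intensities, 1 per probe set and array, with array medians of 12.1 on the FDFT1 array and 12.3 on the control array. Signals are given here as deposited, whereas differences are log2 values of FDFT1 minus control after the arrays were centred, which added 0.11 to each difference where both signals were above the floor. Signals under 12.2, the median of all signals, were set to that floor, so a difference with 1 array under it is a lower bound on its size. The error given with a difference is a probe-level error, estimated from genes with 2 probe sets of like signal. By mean log2 signal, this error was 0.50 below 5, 0.31 between 5 and 7, 0.22 between 7 and 9, 0.16 between 9 and 11, and 0.10 at 11 or more. It leaves out the spread between cultures.

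Differences were small for most of the genes, and the largest difference was that of the brighter RB1 probe set, which was higher with FDFT1. None of the 20 measured probe sets was at least 2-fold higher and none at least 2-fold lower, where 0.917% and 0.806% of all 29891 measured probe sets were. Higher signals with FDFT1 were found for 11 probe sets and lower signals for 9, with a median difference of 0.11, against 0.0037 over all measured probe sets. The other 5 probe sets were under the floor on both arrays, and 4 of the 20 had 1 array under the floor. At 1.5-fold, 1 probe set (RB1) was higher and none lower, where 5.63% of all measured probe sets were higher and 4.63% lower. A difference larger than its own probe-level error was seen for 9 of the 20, where 32.6% of all measured probe sets had one, and larger than 2 errors for 1 of the 20, where 6.93% had one. Of the 9, 7 were higher and 2 lower (16.8% and 15.8% of all measured probe sets), whereas without centring 1 was higher and 4 were lower (10% and 27.7% of all).

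**Figure D1:**
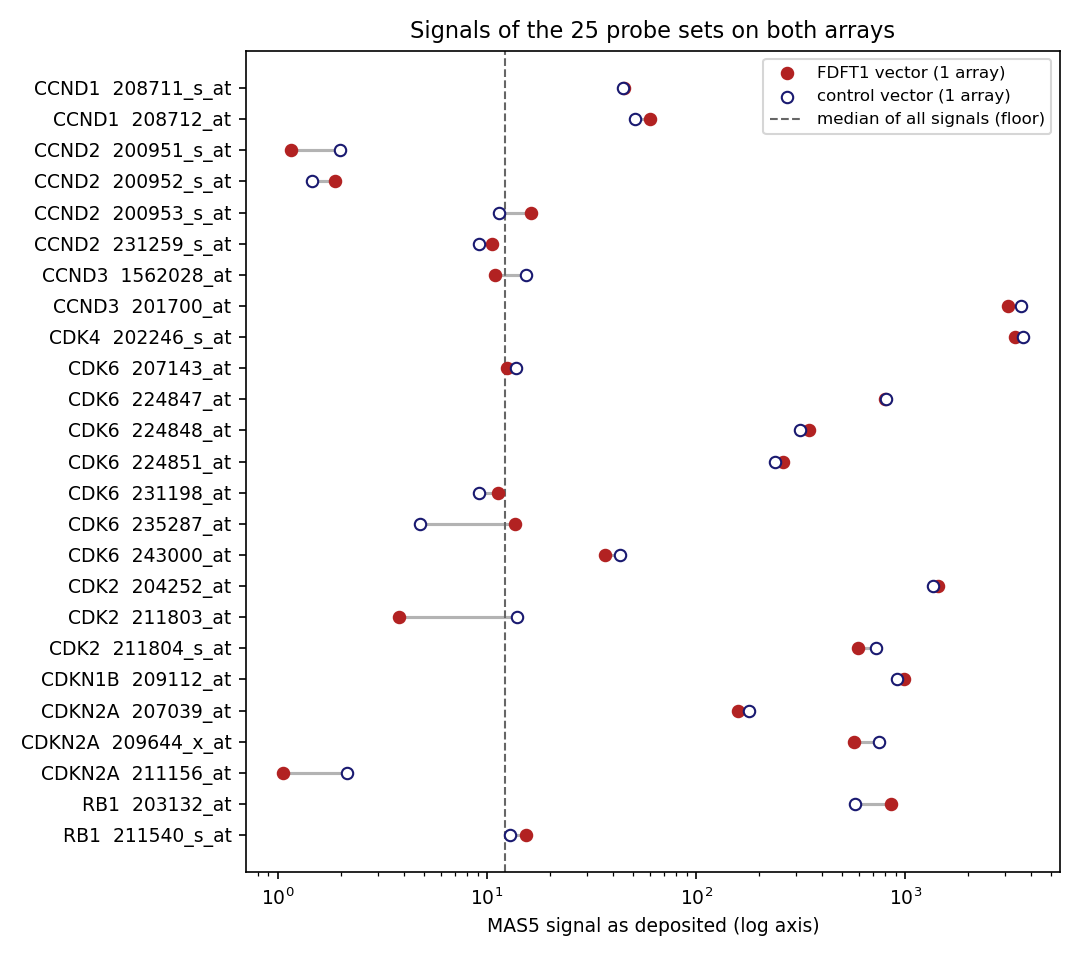
MAS5 signal as deposited (log axis) of each of the 25 probe sets, in rows, on the FDFT1 array (filled) and the control array (open), 1 array each, with the floor of 12.2 dashed. The pairs of points lie close together apart from RB1 203132_at and probe sets near or under the floor.

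RB1 encodes the retinoblastoma protein, the substrate that CDK4, CDK6 and CDK2 act on. Its probe set 203132_at read 857 on the FDFT1 array and 575 on the control array. The difference was 0.68 with an error of 0.16, which is 1.60-fold and 4.21 errors. The second probe set, 211540_s_at, read 15.4 with FDFT1 and 12.8 with the control vector, close to the floor, at 0.37 with an error of 0.50. Both RB1 probe sets were therefore higher with FDFT1, but the dimmer one by less than its error.

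The probe sets in the signal range of 203132_at place this difference. Of 4020 probe sets with a mean log2 signal from 9 to 11, 33 (0.821%) were at least 1.5-fold higher with FDFT1. A difference at least as large as that of 203132_at was found for 18 of the 4020 in the same direction, itself included, and for 2 in the other. As deposited, without centring, the RB1 difference was 0.58, just short of 1.5-fold (0.585 on the log2 scale). It was 0.68 after both quantile and loess normalization.

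**Figure D2:**
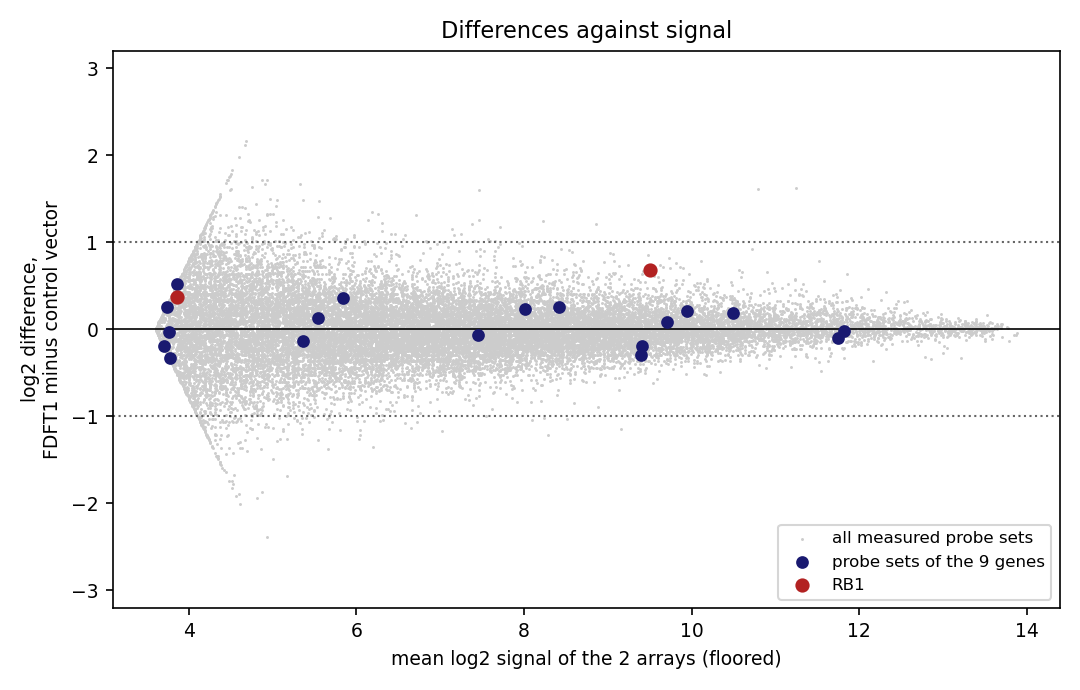
Log2 difference (FDFT1 minus control vector) against the mean log2 signal of the 2 arrays for all 29891 measured probe sets (grey), the probe sets of the 9 genes (dark) and RB1 (red). Dotted lines mark 2-fold, and the brighter RB1 probe set, at 0.68, lies at the upper edge of the cloud at its signal.

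RB1 lies on chromosome 13, and its neighbours there were read after its value had been seen. Among the 5 protein-coding genes on either side in RefSeq order, 7 of the 10 were measured. Of these, 6 were higher with FDFT1 and 1 lower, where 49.8% of all measured genes were higher, and the median was 0.20. SUCLA2 (0.14, error 0.16), MED4 (0.20, error 0.22) and CYSLTR2 (0.13 or higher, error 0.50) were within the error. FNDC3A was at 0.37 (error 0.22), with 1 of its 3 measured probe sets higher and 2 lower. The next measured gene on one side, ITM2B, was at -0.10 with an error of 0.10 (2205 with FDFT1 and 2551 with the control vector). On the other side RCBTB2 was at 0.41 with an error of 0.31 (88.4 with FDFT1 and 71.6 with the control vector). The highest, HTR2A, was at 1.02 or higher with an error of 0.50 (23.0 with FDFT1 and 5.19, under the floor, with the control vector). Whether the region as a whole differed was not tested.

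The D-type cyclins, the regulatory partners of CDK4 and CDK6, had no probe set at least 1.5-fold different with the floor used. CCND3 probe set 201700_at had a signal of 3085 with FDFT1 and 3562 with the control vector, a difference of -0.10 with an error of 0.10. Its other probe set, 1562028_at, read 10.9 with FDFT1, under the floor, and 15.4 with the control vector, at -0.33 or lower with an error of 0.50. The lower CCND3 signal was within the probe-level error on both probe sets on the centred scale only. On the brighter one it was past the error under the other scalings, at -0.14 after quantile normalization, -0.13 after loess and -0.21 without centring.

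CCND1, the cyclin D1 gene and the D-type cyclin most often amplified in cancers, was read by 2 probe sets. Probe set 208712_at gave 60.4 with FDFT1 and 50.8 with the control vector, a difference of 0.36 with an error of 0.31. Probe set 208711_s_at gave 45.4 with FDFT1 and 44.6 with the control vector, a difference of 0.13 with an error of 0.31. CCND1 was thus higher on both, by more than the error on 1 of them, and the gap between the 2 values (0.22) was smaller than its error of 0.44. Without centring the values were 0.25 and 0.03, both within the error.

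CCND2, the cyclin D2 gene, was at or near background on both arrays. Of its 4 probe sets, 3 lay under the floor on both arrays, with signals from 1.16 to 10.5 with FDFT1 and from 1.45 to 9.18 with the control vector. The fourth, 200953_s_at, read 16.2 with FDFT1 and 11.4 with the control vector, at 0.52 or higher with an error of 0.50. So close to the floor, this value carries little weight.

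**Figure D3:**
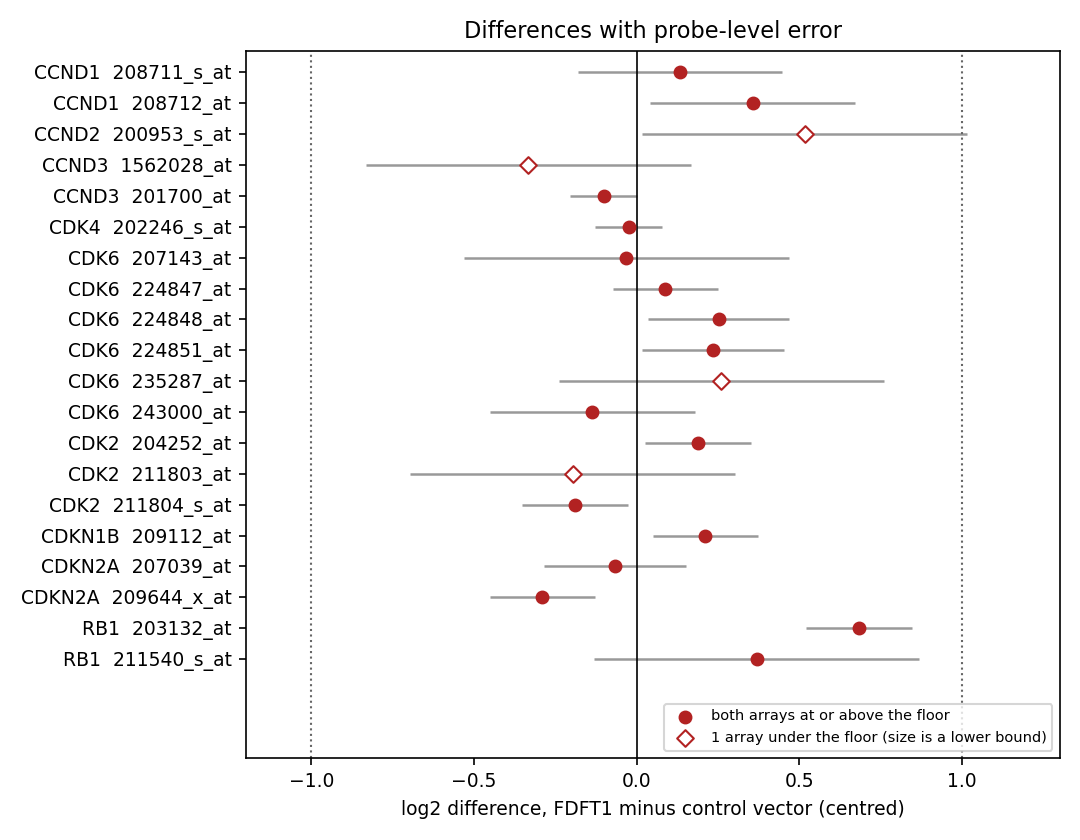
Log2 difference (FDFT1 minus control vector, centred) of the 20 measured probe sets, with bars of 1 probe-level error. Open diamonds have 1 array under the floor, dotted lines mark 2-fold, and only RB1 203132_at, at 0.68, is more than 2 errors from 0.

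Among the kinases, CDK4, the first partner of the D-type cyclins, was within the error on all scalings except the values without centring. Its single probe set, 202246_s_at, read 3334 with FDFT1 and 3650 with the control vector, a difference of -0.02 with an error of 0.10. Without centring it was -0.13, past that error. MYC, which encodes an E-box binding factor, was at 0.10 with an error of 0.16 (1479 with FDFT1 and 1488 with the control vector).

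CDK6, the other partner of the D-type cyclins, had 7 probe sets, of which 6 were measured, 4 higher and 2 lower. Probe set 224847_at read 798 with FDFT1 and 809 with the control vector, a difference of 0.09 with an error of 0.16 that became -0.02 without centring. Probe set 224848_at read 346 with FDFT1 and 313 with the control vector (0.25, error 0.22), and 224851_at read 260.4 with FDFT1 and 238 with the control vector (0.23, error 0.22). These 3 brighter probe sets ranged from 0.09 to 0.25, and the gap of 224847_at minus 224848_at (-0.16) was smaller than its error of 0.27. Without centring 224848_at and 224851_at were at 0.15 and 0.13, within the error.

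The dimmer CDK6 probe sets pointed both ways, by less than the error once floored. Probe set 243000_at was at -0.14 with an error of 0.31 (36.6 with FDFT1 and 43.2 with the control vector). Probe set 207143_at was at -0.03 with an error of 0.50 (12.5 with FDFT1 and 13.7 with the control vector). Probe set 235287_at read 13.6 with FDFT1 and 4.76 with the control vector, at 0.26 or higher once floored (error 0.50) and 1.62 without a floor. Its size thus depends on how signals under the floor are treated, and 231198_at was under it on both arrays (11.3 with FDFT1 and 9.10 with the control vector).

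CDK2, the kinase that works with cyclin E, gave opposite values on its brighter probe sets. Probe set 204252_at read 1435 with FDFT1 and 1356 with the control vector, a difference of 0.19. Probe set 211804_s_at read 592 with FDFT1 and 726 with the control vector, a difference of -0.19. Each was just larger than its error of 0.16, and the gap of 0.38 between them was larger than its error of 0.23. Without centring 204252_at was at 0.08, within its error, and 211804_s_at at -0.30. The third probe set, 211803_at, read 3.78 with FDFT1, under the floor, and 13.97 with the control vector, at -0.20 or lower once floored and -1.78 without a floor. A direction for CDK2 therefore depends on the probe set, and the mean over its probe sets was -0.07.

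Of the inhibitors, CDKN1B was a little higher and CDKN2A a little lower. The CDKN1B probe set, 209112_at, read 982 with FDFT1 and 913 with the control vector, a difference of 0.21 with an error of 0.16, or 0.11 without centring. It was 0.19 after quantile normalization and 0.205 after loess. The p27 transcript was thus higher by more than the error on all scalings except the values without centring.

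CDKN2A, the gene of p16 and ARF, had 2 measured probe sets, both lower with FDFT1. Probe set 209644_x_at read 566 with FDFT1 and 745 with the control vector, a difference of -0.29 with an error of 0.16. Its name marks it as open to signal from similar sequences. Probe set 207039_at read 158 with FDFT1 and 179 with the control vector, at -0.07 with an error of 0.22, and 211156_at was under the floor on both arrays (1.06 with FDFT1 and 2.14 with the control vector). The lower value thus rested on the _x_at probe set, and the gap of -0.22 between the 2 measured probe sets was smaller than its error of 0.27.

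The genes next to CDKN2A on chromosome 9 were read for the same span. CDKN2B, the gene of the related inhibitor p15, read 16.1 with FDFT1 and 17.7 with the control vector, at -0.03 with an error of 0.50. MTAP, a methionine salvage enzyme often lost together with CDKN2A in tumours, was at -0.48 with an error of 0.22 on its brightest probe set (119 with FDFT1 and 179 with the control vector). Of the 5 measured MTAP probe sets, however, 3 were higher and 2 lower, and 204956_at was at 0.70 with an error of 0.31. CDKN2B-AS1 and DMRTA1 had no measured probe set. Among the 5 protein-coding genes on either side in RefSeq order, read after the values had been seen, 4 of the 10 were measured. By the brightest probe set none of these was higher with FDFT1 and 4 were lower, with a median of -0.12, where 49.8% of all measured genes were higher. Besides CDKN2B and MTAP these were ELAVL2 at -0.16 (error 0.31) and TUSC1 at -0.08 (error 0.22), both within the error.

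**Figure D4:**
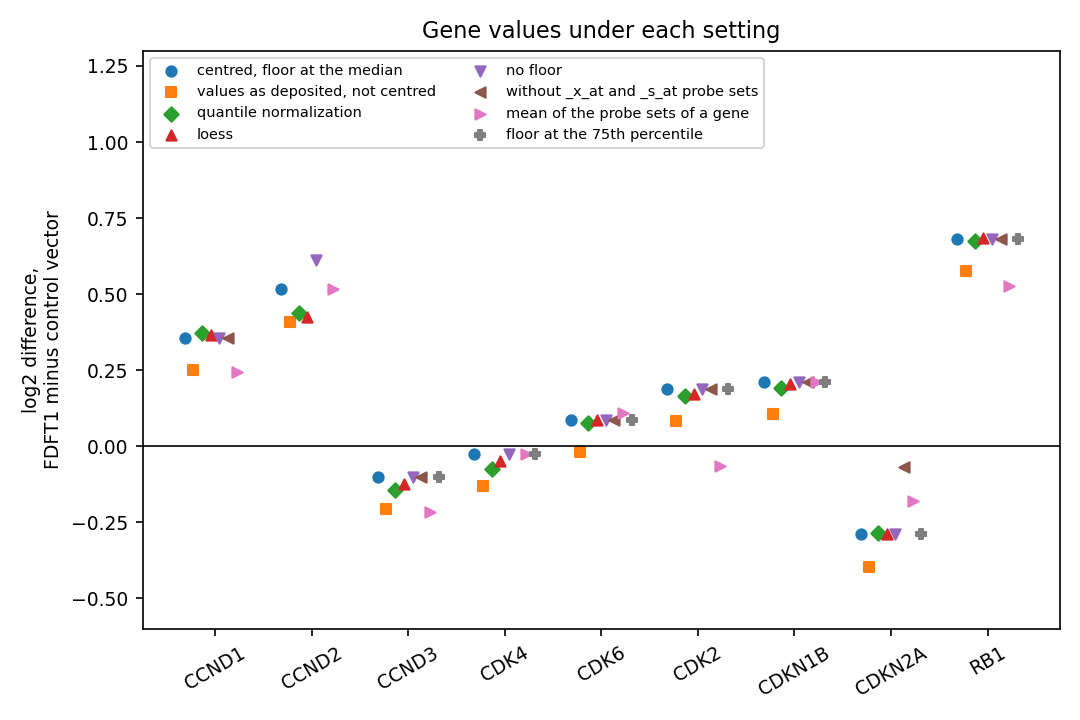
Log2 difference (FDFT1 minus control vector) of the brightest measured probe set of each of the 9 genes, or the mean over its probe sets, under each processing setting (symbols); genes without a measured probe set under a setting have no symbol there. RB1 is highest and above 0.5 throughout, CDKN2A is lowest in most settings, and CDK6 and CDK2 have values on both sides of 0.

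Other regulators of the G1/S transition, taken from a list set down with the members, were spread around 0. Of 24 genes 23 were measured, 9 higher with FDFT1 and 14 lower, with a median of -0.07 against -0.0012 over all 13106 measured genes. None was 2-fold higher or lower (0.656% and 0.649% of all genes were), while 1 was at least 1.5-fold higher and 1 at least 1.5-fold lower (4.14% and 3.4% of all genes). The highest was RBL2, a relative of RB1 that represses E2F targets in resting cells, at 0.82 with an error of 0.22 (290 with FDFT1 and 176 with the control vector). Its other probe set, 212332_at, was at -0.12 with an error of 0.50 (22.2 with FDFT1 and 25.9 with the control vector).

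RBL1, the other relative of RB1, was at 0.35 with an error of 0.22 (172 with FDFT1 and 145 with the control vector), with 1 of 3 measured probe sets higher. A dimmer one, 1559307_s_at, was at -0.73 or lower with an error of 0.50 (9.18 with FDFT1, under the floor, and 20.2 with the control vector). CDKN1C, the gene of the inhibitor p57, was at 0.37 with an error of 0.50, with signals of 25.6 with FDFT1 and 21.3 with the control vector. The brightest probe sets of RB1, RBL1 and RBL2 were all higher with FDFT1. Dimmer probe sets of RBL1 and RBL2 were lower. For 212332_at of RBL2 and 1555004_a_at of RBL1 (-0.06, error 0.31) this was by less than the error.

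On the lower side, CDKN2D, the gene of the inhibitor p19, was at -0.62 with an error of 0.31 (44.7 with FDFT1 and 74.1 with the control vector). E2F1, the factor that RB1 restrains, was at -0.50 with an error of 0.22 (116 with FDFT1 and 177 with the control vector), with both its probe sets lower. E2F2, a further activating E2F, was at -0.39 with an error of 0.22 (278 with FDFT1 and 392 with the control vector), with 1 of its 3 probe sets lower. Cyclin E, the partner of CDK2, differed by less than its error in both genes, at -0.03 for CCNE1 and 0.07 for CCNE2.

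E2F target genes of DNA replication, which are read out when RB1 is phosphorylated, were spread to both sides of 0. Of 22 genes 21 were measured, 11 higher and 10 lower, with a median of 0.03. None was 1.5-fold higher or lower, where 4.14% and 3.4% of all genes were. Most of these genes had a mean log2 signal of 9 or more, and such differences are rarer among bright probe sets. From 9 to 11, 0.821% of probe sets were at least 1.5-fold higher, so a count of 0 says little about the list. MCM4, a helicase subunit, was at 0.28 (1807 with FDFT1 and 1603 with the control vector, error 0.16) and RRM1, of ribonucleotide reductase, at 0.27 (3119 with FDFT1 and 2784 with the control vector, error 0.10). Other probe sets differed from these, with 1 of 2 lower for RRM1 and 1 of 4 lower for MCM4, at -0.21 (error 0.22). The MCM4 probe sets 212141_at and 222037_at were at 0.0049 and 0.06, both within their error of 0.16. UNG, a DNA repair glycosylase, was at 0.14. The lowest were TK1, thymidine kinase, at -0.23 (1311 with FDFT1 and 1654 with the control vector, error 0.16), with both probe sets lower, and the helicase subunits MCM2 at -0.19 and MCM3 at -0.16.

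Genes listed for the turnover of p27 and D-type cyclins, which include the cyclin E receptor FBXW7, had values on both sides of 0. All 13 were measured, 9 higher and 4 lower, with a median of 0.02. None was 1.5-fold higher or lower, where 4.14% and 3.4% of all genes were, so this count says little about the list. AMBRA1, the ligase receptor for D-type cyclins, was at 0.54 with an error of 0.22 (149 with FDFT1 and 110 with the control vector), higher on both measured probe sets. FBXW7 was at 0.25 (error 0.22), with 1 of its 4 measured probe sets lower. CUL4A, a ligase scaffold, was at 0.10 (error 0.16). FBXO4 was at -0.37 (error 0.31), FBXO31 at -0.16 (error 0.22) and CUL1 at -0.06 (error 0.16). SKP2, the receptor that takes p27 to the proteasome, was at 0.02 with an error of 0.16 (1187 with FDFT1 and 1263 with the control vector).

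Transcriptional regulators of the member genes were measured for 11 of 12, with 6 higher, 5 lower and a median of 0.05. None was 1.5-fold higher or lower, against 4.14% and 3.4% of all genes. MYCN was at 0.34 or higher from a control signal under the floor, CTNNB1, the beta-catenin gene, at 0.24 (error 0.10, with 1 of 3 probe sets higher), and EZH2, a Polycomb enzyme that represses CDKN2A, at 0.14. JUN, which drives CCND1 transcription, was at -0.48 (error 0.31, with 1 of 2 probe sets lower), CBX7, a Polycomb protein that represses CDKN2A, at -0.45 (error 0.31), and FOXO1 at -0.14.

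**Figure D5:**
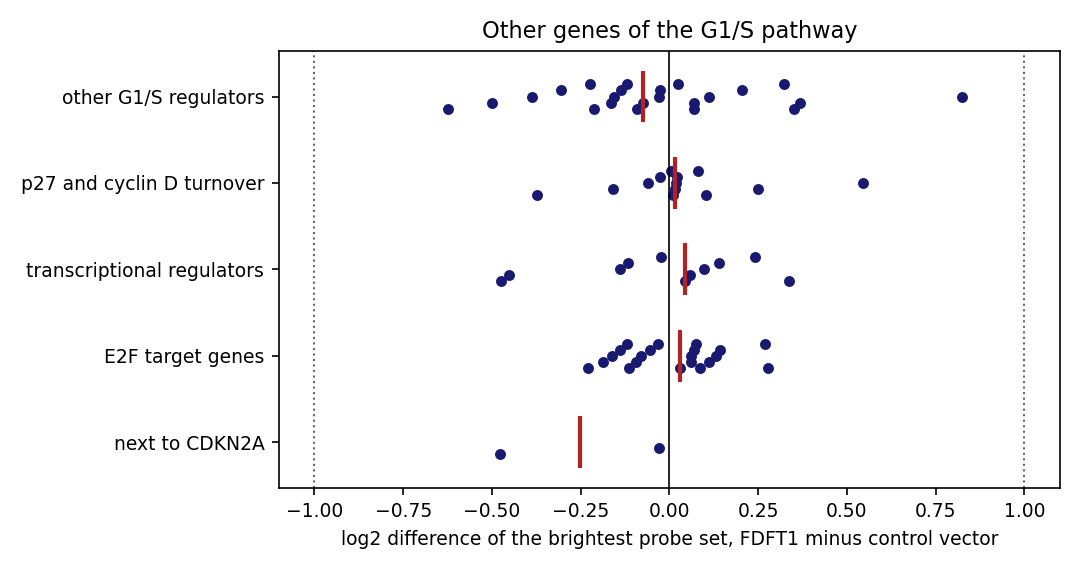
Log2 difference (FDFT1 minus control vector) of the brightest measured probe set of each gene (points) in 5 lists of the pathway, with the median of each list (red bar). No gene reaches the dotted 2-fold lines, and RBL2, at 0.82, is the highest.

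Markers of the labelled cell type that had a probe set were dim. Of 9 type II alveolar markers 7 had a probe set under their own symbol, and 5 were measured. No probe set of the 7 exceeded a signal of 79.9. The summed signal over their 15 probe sets, those under the floor included, was 252 with FDFT1 and 277 with the control vector. Surfactant protein C (SFTPC) read 16.9 with FDFT1 and 29.3 with the control vector, and ABCA3, a lamellar body transporter, 55.6 with FDFT1 and 79.9 with the control vector. In the other direction, LAMP3 read 58.8 with FDFT1 and 53.0 with the control vector, and SFTPB was at 0.25 with an error of 0.31 (35.3 with FDFT1 and 31.97 with the control vector). After centring, SFTPC was at -0.69 (error 0.50) and ABCA3 at -0.42 (error 0.31), both lower by more than the error. LAMP3 at 0.26 (error 0.31), SFTPB, and NKX2-1 at 0.02 (error 0.50) were higher by less than the error. The 5 markers thus pointed both ways, past the error only on the lower side. Their low signals give little support for a type II state. Of 6 blood and immune markers 4 were measured, and the sum over all 15 probe sets was 125 with FDFT1 and 114 with the control vector. Of 7 fibroblast and endothelial markers 3 were measured, and the sum over all 25 probe sets was 251 with FDFT1 and 249 with the control vector. These sums also count probe sets under the floor, so they cannot be compared between cell types. The surfactant gene SFTPC and the lung factor NKX2-1 (29.3 with FDFT1 and 31.1 with the control vector) were thus near the floor but not at 0, and the part of other cells in the differences was not tested.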

How the data were processed

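RNA of 1 FDFT1 culture and 1 control vector culture was measured on 1 array each. The deposited values are signal intensities on a linear scale made by the authors with MAS5, per the submitters' processing notes. No source used here gives its version, scaling target or detection calls. Groups came from the labels. Without the 62 control probe sets 54613 were left, of which 41091 had 1 listed gene, 1801 several and 11721 none; only those with 1 gene were named.

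Python 3.11.15, numpy 2.4.6, pandas 2.3.3 and statsmodels 0.14.6 were used. FDFT1 signals were centred by the median log2 difference (-0.11) over probe sets at or above the floor on both arrays, floored at 12.2, and differenced as FDFT1 minus control. A probe set was measured if 1 of its scaled signals reached the floor, and a gene took its brightest measured probe set. The probe-level error is the SD of the gap between a gene's 2 brightest probe sets, both in 1 signal range, divided by the square root of 2. The number of arrays limits the precision, and there is no test. The steps were tested on simulated data with changes of at least 2-fold in bright genes and a constant error. Smaller changes, such as those of the members, were not simulated.

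The members and lists were chosen with earlier results of these data known. All members were named with every probe set, and up to 3 genes each way from each list; others were chosen after their values were seen. No gene was named for likeness of pattern, since 2 arrays give a single difference. Alternatives were other scalings, floors, probe set types, fold thresholds and the mean over probe sets. Promoter windows came from RefSeq (GRCh38.p14).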

Additional observations from a re-analysis of the deposited data

How the results depend on the processing

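No paired analysis was possible because each group is 1 array. The count of probe sets at least 2-fold different was 0 as reported, 2 without a floor (CDK6 235287_at at 1.62 and CDK2 211803_at at -1.78, each with 1 signal under the floor) and 1 with a 1.5-fold threshold. It was 0 with values as deposited, quantile, loess, the floor at the 75th percentile (a signal of 99.4), the 3-fold threshold, and without _x_at and _s_at probe sets. The direction was the same under the 4 scalings for 19 of the 20 measured probe sets, the exception being CDK6 224847_at, and the split of higher to lower was 11 to 9 as reported and 10 to 10 as deposited, where the median over all measured probe sets was -0.10. CDK2 was at -0.07 with the mean over its probe sets, and CDKN2A at -0.07 without _x_at and _s_at probe sets. CDK4 and CCND3 were at -0.13 and -0.21 as deposited, both past their error, where 27.7% of all measured probe sets were lower by more than theirs. RB1 lay between 0.53 and 0.68 in all settings. Probe sets near the floor, including all of CCND2, are limited by signal over background.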
